A study of Homo sapiens with 8 samples.

Results

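The transcripts of 10 genes of the YAP and TEAD pathway were followed across 8 RNA sequencing libraries of KYSE70 and KYSE450, both human lines of esophageal squamous cell carcinoma. They are the transcription cofactor genes YAP1 and WWTR1, the DNA-binding factor gene TEAD1, the pathway regulators LATS2, AMOTL1, AMOTL2 and AJUBA, and the target genes CYR61, CTGF and ANKRD1. The rows were taken by gene name from the 48162 genes listed in each library, and each of the 10 names occurred once. The study overexpressed and knocked down the long noncoding RNA NMR in both lines. The first group is NMR overexpression from a transfected PCDNA3.1 plasmid, and the second is its control. The third group is NMR knockdown, titled shRNA and delivered by lentivirus packaged in HEK 293T cells, and the fourth is the knockdown control, titled shcon. Each of the 4 groups holds 1 KYSE70 and 1 KYSE450 library, all from cells at passages 5 to 10, so n = 2 lines stands behind each treatment. The overexpression groups are called the plasmid arm here and the knockdown groups the lentiviral arm. The arms differ in delivery and control construct together, and the effects of these cannot be told apart. The plasmid arm also holds the NMR overexpression libraries and the lentiviral arm the knockdown libraries. A comparison of whole arms therefore includes these opposite manipulations as well. No listed gene carries the name NMR, so the level of the target in the 2 manipulations was not analysed here. Separate cultures within a line are not mentioned in the labels. The spread behind the treatment p-values is the disagreement of the 2 lines in their changes, pooled over overexpression and knockdown. On the log2 scale the median absolute disagreement over all genes tested was 0.349 with knockdown and 0.16 with overexpression. The shared spread therefore stands for neither treatment alone, and their p-values do not compare them on their own spreads. For line and arm the spread is the disagreement among the groups in how the lines differ. Differences in response between the lines and technical differences cannot be told apart in this spread.

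YAP1 and WWTR1, whose protein is called TAZ, encode cofactors that cannot bind DNA themselves and act in the nucleus through TEAD factors. When the Hippo kinases are active, LATS1 and LATS2 phosphorylate YAP and TAZ and hold them in the cytoplasm. Angiomotin family proteins, among them the products of AMOTL1 and AMOTL2, bind YAP and keep it at junctions and the cytoskeleton, and AJUBA restrains LATS kinases. CYR61 and CTGF, which encode secreted matricellular proteins, and ANKRD1, which encodes an ankyrin repeat protein, are widely used as readouts of YAP and TAZ activity. AMOTL2, AJUBA and LATS2 are themselves known as YAP and TAZ target genes, so their transcripts can follow the pathway as well as feed back on it. YAP1 lies in a chromosome 11 region that is amplified in a part of squamous carcinomas. Transcript levels say nothing of where YAP sits in the cell or whether it is phosphorylated.

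The libraries held 26401805 to 37937856 recovered reads, and 1 read in a gene of 1 kb was worth 0.0264 to 0.0379 FPKM. FPKM, in which a level is scaled to gene length and library size, is the unit inferred for the deposited values. Markers of squamous epithelium were high in every library, with sums over 10 markers of 7873 to 26660 FPKM and KRT5 the highest of them. The KYSE70 libraries carried little KRT14 (3.20 to 38.3 FPKM) and KRT17, and 9 of the 10 squamous markers had fitted differences below 0 (KYSE70 minus KYSE450), 7 of them called lower, as were 27.4% of all genes tested. Sums over 8 fibroblast markers were 32.4 to 63.8 FPKM, mostly COL1A1, with DCN, LUM and PDGFRA near 0; the 5 listed endothelial markers summed to 0.856 to 4.54 FPKM, mostly VWF; and all 7 immune markers were under 1 FPKM in every library. The KYSE70 knockdown library had 7.54% of its FPKM in 9 mitochondrially encoded genes, against 3.26% to 5.05% in the other libraries. These are bulk samples, in which fewer cells of one state and less RNA per cell cannot be told apart.

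TEAD factors bind the letters GGAATG, or CATTCC on the other strand. Windows of CTGF, ANKRD1, AMOTL2 and AJUBA that hold these letters are shown first. They were picked by their matches, not by how much the genes differed. The YAP1 window, which also holds a match, and the windows without a match are not printed. The RefSeq table used here, on GRCh38.p14, gave a start for 8 of the 10 genes, with 11 windows of 250 bases upstream in all; TEAD1 and CYR61 had no entry in that table. In the sequences below, printed 5′ to 3′ on the strand of the gene, capitals mark GGAATG or CATTCC and, in ANKRD1 alone, also TGATTCA, a match to the AP-1 motif TGANTCA. Both strands were searched, TGANTCA is its own reverse complement, and no 2 of the matches overlap.
CTGF, chr6:131951373-131951622, minus strand: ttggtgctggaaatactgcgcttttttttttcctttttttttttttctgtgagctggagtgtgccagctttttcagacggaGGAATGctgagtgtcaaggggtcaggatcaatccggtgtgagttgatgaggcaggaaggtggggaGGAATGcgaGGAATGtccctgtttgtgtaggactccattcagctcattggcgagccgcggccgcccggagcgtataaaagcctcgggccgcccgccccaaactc
ANKRD1, chr10:90921088-90921337, minus strand: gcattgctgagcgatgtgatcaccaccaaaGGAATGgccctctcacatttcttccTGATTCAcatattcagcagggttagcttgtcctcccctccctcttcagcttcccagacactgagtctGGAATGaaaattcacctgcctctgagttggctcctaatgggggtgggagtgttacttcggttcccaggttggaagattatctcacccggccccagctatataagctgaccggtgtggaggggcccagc
AMOTL2, second start, chr3:134374448-134374697, minus strand: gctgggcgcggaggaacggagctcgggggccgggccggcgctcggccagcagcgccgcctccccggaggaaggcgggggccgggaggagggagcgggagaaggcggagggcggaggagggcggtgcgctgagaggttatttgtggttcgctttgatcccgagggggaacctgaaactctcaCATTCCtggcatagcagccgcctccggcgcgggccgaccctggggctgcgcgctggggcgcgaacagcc
AJUBA, second start, chr14:22976843-22977092, minus strand: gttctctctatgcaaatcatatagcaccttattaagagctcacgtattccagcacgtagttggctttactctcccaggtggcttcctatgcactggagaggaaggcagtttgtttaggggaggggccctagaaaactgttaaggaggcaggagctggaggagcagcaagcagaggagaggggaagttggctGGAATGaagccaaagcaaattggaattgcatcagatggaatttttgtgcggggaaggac
CTGF has 3 TEAD matches, beginning 169, 104 and 95 bases upstream of the start, the last pair only 3 bases apart. ANKRD1 has 2, beginning at 220 and 128 bases, and its AP-1 match begins at 195 bases. AMOTL2 and AJUBA each have 1 at the second of their 2 annotated starts, beginning 69 and 59 bases upstream, and YAP1 has 1 at 162 bases. The windows of WWTR1, AMOTL1 and LATS2 hold neither motif. Among 35116 RefSeq windows of the same length, 11.89% held GGAATG on either strand, 0.94% held it at least 2 times, 0.08% held it at least 3 times, and 6.57% held TGANTCA. A match is a description of the letters and not a bound site.

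Per length of gene and averaged over both arms, AJUBA was the most abundant of the 10 transcripts in each line and LATS2 the lowest of the regulators. In both KYSE70 libraries of the lentiviral arm, WWTR1 exceeded AJUBA. In KYSE70 the order of mean FPKM was AJUBA, WWTR1, TEAD1, AMOTL2, YAP1, AMOTL1, CYR61, LATS2, ANKRD1 and CTGF (means of 4 libraries, 72.0 for AJUBA and 0.0521 for CTGF). The first 5 of these, AJUBA to YAP1, had overlapping ranges, as had LATS2 and ANKRD1, while AMOTL1, CYR61, LATS2 and CTGF did not overlap their neighbours above. In KYSE450 the order was AJUBA, YAP1, WWTR1, AMOTL1, TEAD1, AMOTL2, CYR61, LATS2, CTGF and ANKRD1 (151.7 for AJUBA and 0.0974 for ANKRD1). There AJUBA overlapped YAP1, AMOTL1 overlapped TEAD1, and AMOTL2 overlapped CYR61, and the other neighbours were apart. By these means YAP1 ranked below WWTR1, TEAD1 and AMOTL2 in KYSE70 and above all of them in KYSE450, and ANKRD1 and CTGF exchanged the last places. The KYSE70 order of YAP1 came from the lentiviral arm: in the plasmid arm YAP1 was above WWTR1 and AMOTL2 in both libraries and above TEAD1 in the overexpression library.

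**Figure D1:**
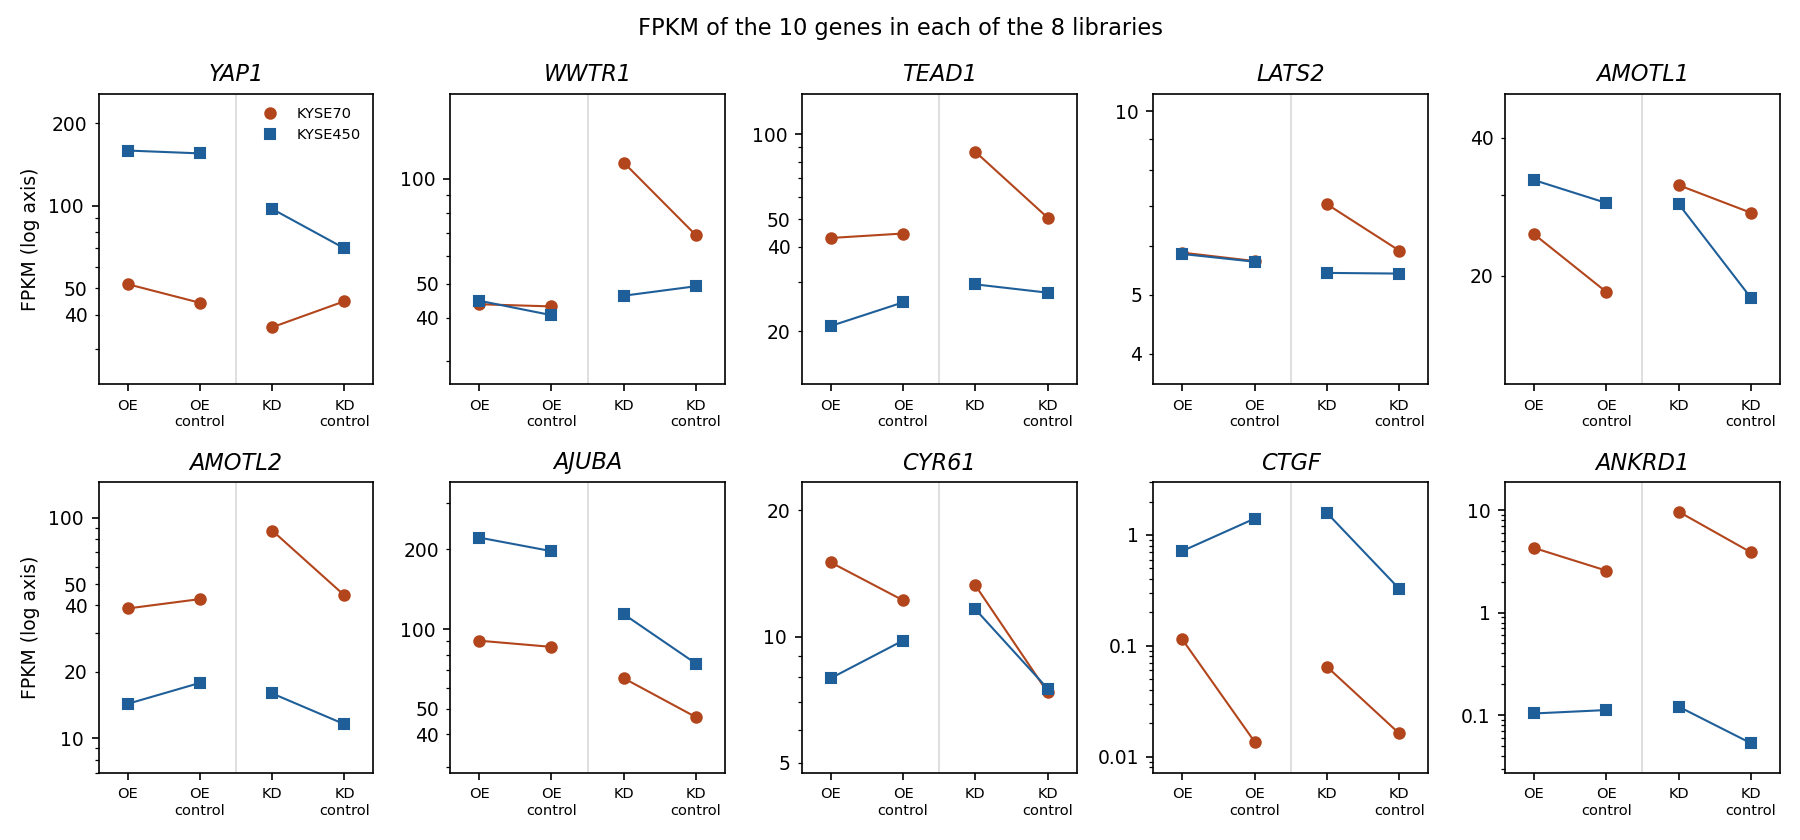
FPKM on log axes of the 10 genes in each library, with KYSE70 as circles and KYSE450 as squares; lines join overexpression (OE) and knockdown (KD) libraries to the control of the same line and arm. YAP1 stands at 36.0 to 51.7 FPKM in KYSE70 and at 69.9 to 159 FPKM in KYSE450, and ANKRD1 is above 2.5 FPKM in KYSE70 alone.

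The first comparison set KYSE70 against KYSE450 over all 4 groups, with 4 libraries per line. YAP1 was lower in KYSE70, while TEAD1, AMOTL2 and ANKRD1 were higher, and AJUBA was lower. Of the 9 genes above the filter of a mean FPKM of 1, 3 were called higher and 2 lower, by an adjusted p under 0.05 in limma over all 14311 genes tested. The lines differ across the transcriptome: 54% of all genes tested were called, 26.6% higher and 27.4% lower in KYSE70, so 5 of 9 is near that share. ANKRD1 passed the filter through KYSE70 alone, so its call was favoured by the filter. CTGF, with a mean of 0.529 FPKM, lay below the filter.

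YAP1 (chr11:102110461-102233423, plus strand; gene positions are those of GENCODE 29 on GRCh38, not the hg19 build of the deposited data) had 51.7 and 44.2 FPKM with overexpression and its control and 36.0 and 44.8 FPKM with knockdown and its control in KYSE70, against 159, 155, 97.3 and 69.9 FPKM in the same groups of KYSE450. Every KYSE70 library was below every KYSE450 library. The log2 difference, KYSE70 minus KYSE450 on log2(FPKM + 1), was -1.36 (SE 0.20, adjusted p = 0.00125), and it ran from -1.79 in the overexpression control to -0.63 in the knockdown control.

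WWTR1 (chr3:149517235-149736714, minus strand), which encodes the partner cofactor TAZ, had 43.7, 43.1, 111 and 68.9 FPKM in KYSE70 with overexpression, its control, knockdown and its control, against 44.7, 40.7, 46.2 and 49.2 FPKM in KYSE450. The lines overlapped in the plasmid arm and stood apart in the lentiviral arm. The difference was 0.44 (SE 0.22, adjusted p = 0.124). At the level of transcript, WWTR1 exceeded YAP1 per length in both KYSE70 libraries of the lentiviral arm, whereas YAP1 exceeded WWTR1 in all 4 KYSE450 libraries.

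TEAD1 (chr11:12674591-12944483, plus strand) had 42.9, 44.5, 86.8 and 50.7 FPKM in KYSE70 in the same order, against 20.9, 25.3, 29.4 and 27.4 FPKM in KYSE450. All 4 KYSE70 libraries were above all 4 KYSE450 libraries, and the difference was 1.05 (SE 0.15, adjusted p = 0.00133). Lines without overlap in the higher direction were found for 24.1% of all genes tested, and in the lower direction for 24.5%.

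Among the regulators, AMOTL2 (chr3:134355874-134375479, minus strand) had 38.8, 42.8, 87.5 and 44.4 FPKM in KYSE70, against 14.3, 17.8, 16.0 and 11.6 FPKM in KYSE450. Every KYSE70 library was above the highest KYSE450 library, and the difference was 1.71 (SE 0.20, adjusted p = 0.000532). Its paralogue AMOTL1 (chr11:94706431-94876753, plus strand) had 24.6, 18.4, 31.5 and 27.4 FPKM in KYSE70, against 32.3, 28.8, 28.7 and 17.9 FPKM in KYSE450. AMOTL1 was lower in KYSE70 in the plasmid arm and higher in the lentiviral arm, and its fitted difference was -0.07 (SE 0.21, adjusted p = 0.799).

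AJUBA (chr14:22971174-22982642, minus strand) had 90.4, 85.7, 65.2 and 46.5 FPKM in KYSE70, against 222, 197, 114 and 74.0 FPKM in KYSE450. It was lower in KYSE70 in each of the 4 groups, although the plasmid libraries of KYSE70 were above the knockdown control of KYSE450, and the difference was -0.98 (SE 0.14, adjusted p = 0.00131). LATS2 (chr13:20973032-21061547, minus strand) had 5.86, 5.68, 7.04 and 5.90 FPKM in KYSE70, against 5.83, 5.66, 5.43 and 5.41 FPKM in KYSE450. Relative to its mean it varied least of the 10 genes, and its difference was 0.11 (SE 0.15, adjusted p = 0.552).

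The 3 target genes took 3 different courses. ANKRD1 (chr10:90912096-90921276, minus strand) had 4.28, 2.57, 9.67 and 3.88 FPKM in KYSE70, against 0.104, 0.112, 0.121 and 0.0532 FPKM in KYSE450. It was well covered in KYSE70, with 160 to 506 recovered reads, and near the limit of detection in KYSE450, with 4 to 7 reads. The difference was 2.35 (SE 0.26, adjusted p = 0.000347); adding 1 to each value understates the change of a gene this low in one line, and voom on recovered reads gave 5.53 (adjusted p = 4.84e-05).

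CTGF (chr6:131948176-131951373, minus strand) ran the other way, with 0.114, 0.0136, 0.0647 and 0.0162 FPKM in KYSE70, against 0.716, 1.40, 1.58 and 0.326 FPKM in KYSE450. These stand for 8, 1, 4 and 1 recovered reads in KYSE70 and for 49, 89, 108 and 29 reads in KYSE450. The lines did not overlap; a count of 3 reads is taken as the floor of a library, and 2 of the 4 KYSE70 libraries were under it. CTGF was called, as lower in KYSE70, in the fit with no filter on low genes, and fits with the filter did not test it.

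CYR61 (chr1:85580761-85583962, plus strand), the CTGF paralogue, had 15.03, 12.2, 13.3 and 7.37 FPKM in KYSE70, against 7.96, 9.79, 11.6 and 7.52 FPKM in KYSE450. The ranges of the lines overlapped, with a difference of 0.32 (SE 0.18, adjusted p = 0.166).

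**Figure D2:**
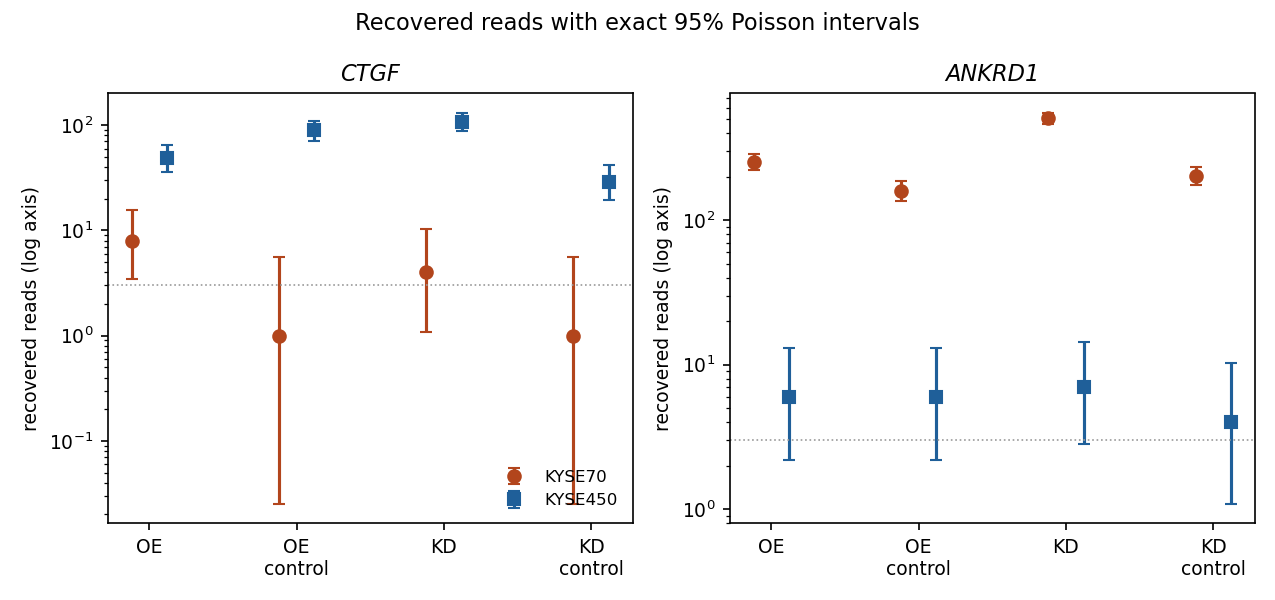
Recovered reads of CTGF (left) and ANKRD1 (right) on log axes, with exact 95% Poisson intervals that cover counting error only; the dotted line marks 3 reads. CTGF has 1 to 8 reads in KYSE70 and 29 to 108 in KYSE450, and ANKRD1 has 160 to 506 in KYSE70 and 4 to 7 in KYSE450.

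**Figure D3:**
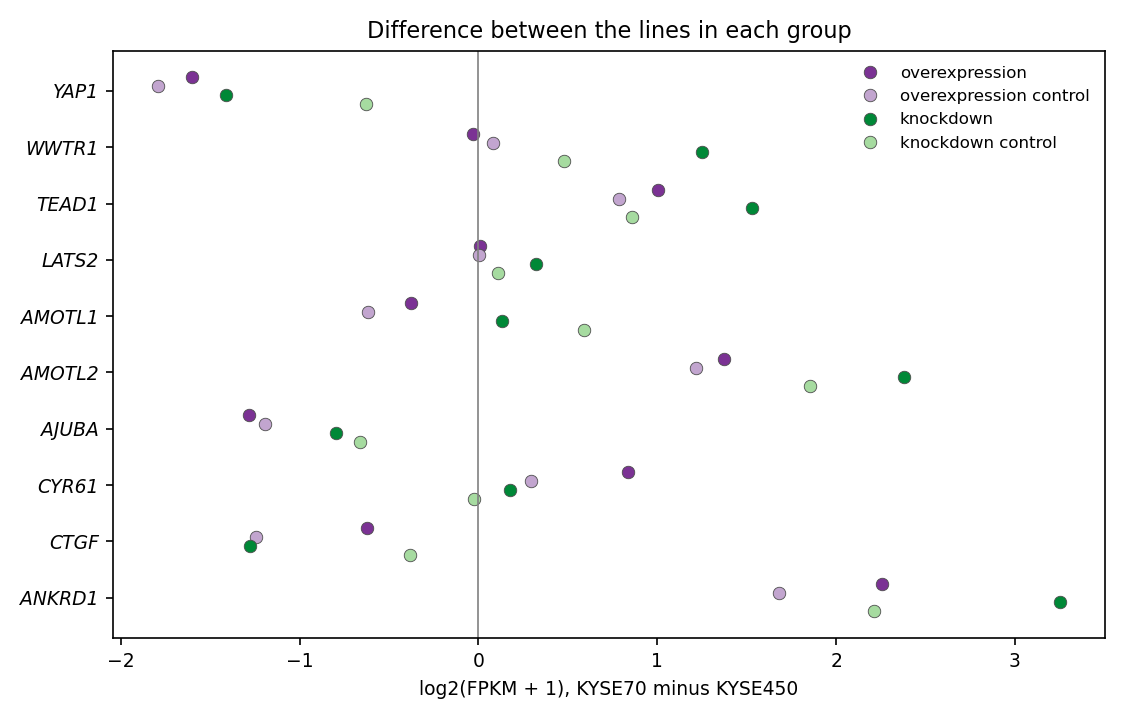
Difference in log2(FPKM + 1), KYSE70 minus KYSE450, of each gene in each of the 4 groups. TEAD1, AMOTL2 and ANKRD1 lie above 0 and YAP1, AJUBA and CTGF below 0 in all groups, while WWTR1, AMOTL1 and CYR61 lie on both sides.

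In the rest of the pathway, calls between the lines went in both directions. Of 24 Hippo kinases and scaffolds, all of them tested, 5 were higher and 4 lower in KYSE70, against the 26.6% higher and 27.4% lower of all genes tested. The scaffold gene SAV1 had a log2 difference of 2.18 (SE 0.17, adjusted p = 6.62e-05), the kinase gene STK4 of 0.74, the cadherin gene FAT1 of 0.80, the LIM protein gene LIMD1 of 0.70 and NF2, which encodes Merlin, of 0.45. Lower in KYSE70 were FRMD6 at -0.95, TAOK2 at -0.76, the LATS cofactor gene MOB1A at -0.49 and TAOK1 at -0.45. FRMD6 alone of these 9 overlapped between the lines, with a difference of -1.64 to 0.07 over the 4 groups. The list's median was 0.03, against -0.02 over all genes tested.

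Among the other TEAD and VGLL genes 4 of 6 were tested, and 2 were called. TEAD2 was higher in KYSE70 at 1.17 (SE 0.15, adjusted p = 0.000834), with 35.9, 34.6, 17.8 and 30.7 FPKM in KYSE70 against 13.1, 13.8, 10.4 and 11.8 FPKM in KYSE450. TEAD3 was higher at 0.46 (SE 0.16, adjusted p = 0.0499), close to the threshold. TEAD4 stood at -0.23 and VGLL4, whose protein competes with YAP for TEAD, at 0.05, and neither passed. VGLL3 was listed at 0 in all 4 KYSE70 libraries and at 1.12 to 2.30 FPKM in KYSE450.

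Of 18 other YAP and TAZ targets 17 were tested, with 7 higher and 4 lower in KYSE70, near the 54% of all genes called. Of these, AXL and TGFB2 passed the filter through KYSE450 alone. IGFBP3, whose product binds insulin-like growth factors, had 1356, 1152, 3127 and 1250 FPKM in KYSE70 against 80.0, 46.9, 75.8 and 61.0 FPKM in KYSE450, a difference of 4.58 (SE 0.21, adjusted p = 9.07e-06). THBS1 (1.83), GADD45A (1.79), the tissue factor gene F3 (1.74), ASAP1 (1.72), MYOF (1.02) and CCDC80 (0.62) were the others that were higher. The receptor tyrosine kinase gene AXL was lower at -2.26, TGFB2 at -2.05, DOCK5 at -1.11 and ARHGEF17 at -0.84. AXL had 0.0915 to 0.578 FPKM in KYSE70 and 1.67 to 11.9 FPKM in KYSE450, and so shared its direction with CTGF and not with ANKRD1. The median of the targets tested was 0.28.

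The second comparison set the lentiviral arm, knockdown and its control, against the plasmid arm, overexpression and its control, within each line. AJUBA was lower in the lentiviral arm and was the only 1 of the 9 tested genes called; 4.02% of all genes tested were called, 3% higher and 1.01% lower. Unadjusted p was under 0.05 for 4 of the 9, AJUBA, YAP1, TEAD1 and WWTR1, and for 27.5% of all genes tested. WWTR1 and TEAD1 were higher in the lentiviral arm in both lines without passing the threshold. The all-gene median of the arm change was 0.07, with 0.13 in KYSE70 and 0.01 in KYSE450, and the changes below are given without its removal.

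AJUBA stood at 65.2 and 46.5 FPKM in the lentiviral arm of KYSE70, against 90.4 and 85.7 FPKM in its plasmid arm, and at 114 and 74.0 FPKM in the lentiviral arm of KYSE450, against 222 and 197 FPKM. The arms did not overlap in either line, as in 10.6% of all genes tested in this direction. The log2 change was -0.92 (SE 0.14, adjusted p = 0.0323), with -0.67 in KYSE70 and -1.18 in KYSE450. The call did not hold without any 1 library other than the KYSE450 knockdown, with adjusted p between 0.0517 and 0.154, nor between the controls alone (-1.13, adjusted p = 0.123). It was also lost with no filter (0.136) and with lines left out of the model (0.772), while the change kept its direction in all of these fits.

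YAP1 had 36.0 and 44.8 FPKM in the lentiviral arm of KYSE70 against 51.7 and 44.2 FPKM in its plasmid arm, and 97.3 and 69.9 FPKM against 159 and 155 FPKM in KYSE450. The arms overlapped in KYSE70 and did not in KYSE450, where 32.3% of all genes tested were lower without overlap. Its change was -0.58 (SE 0.20, adjusted p = 0.120), with -0.25 in KYSE70 and -0.92 in KYSE450. Between the controls alone, YAP1 in the knockdown control was 1.01-fold of the overexpression control in KYSE70 (95% counting interval 0.967 to 1.06) and 0.450-fold in KYSE450 (0.437 to 0.463).

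WWTR1 stood at 0.996 in KYSE70 and 0.16 in KYSE450, with a fitted change of 0.58 (SE 0.22, adjusted p = 0.147). TEAD1 stood at 0.59 and 0.29 in the same lines, with 0.44 (SE 0.15, adjusted p = 0.127). Both genes were higher in the lentiviral arm without overlap in either line, as were 20% of all genes tested. Without the KYSE450 knockdown library both were called, WWTR1 at 0.85 (adjusted p = 0.0251) and TEAD1 at 0.60 (adjusted p = 0.0279).

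The remaining members did not move one way. AMOTL1 was higher in the lentiviral arm of KYSE70 by 0.45 and lower in that of KYSE450 by 0.41, and AMOTL2, ANKRD1 and LATS2 were higher in KYSE70 (0.60, 0.73 and 0.14) and lower in KYSE450 (-0.22, -0.03 and -0.07). CYR61 was at -0.41 in KYSE70 and 0.08 in KYSE450. The difference of the arm change between the lines was tested in an added model of line, arm and their interaction, which has no treatment term and so counts treatment differences within an arm as error, and it called 6.88% of all genes tested and 0 of the 9 members. By the unadjusted p of that test 27.1% of all genes were under 0.05, and so were 3 members: AMOTL1 (difference 0.86, adjusted p = 0.144), WWTR1 (0.84, adjusted p = 0.118) and YAP1 (0.68, adjusted p = 0.154).

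Of the other lists, GADD45A, a stress-response gene counted among YAP targets, was the only gene called between the arms. It had 154 and 336 FPKM in the lentiviral arm of KYSE70 against 128 and 102 FPKM in its plasmid arm, and 50.8 and 88.4 FPKM against 34.7 and 28.2 FPKM in KYSE450, a change of 1.03 (SE 0.11, adjusted p = 0.0197). None of the 24 Hippo kinases and scaffolds and none of the 4 tested TEAD and VGLL genes passed in limma, nor did any of the other tested targets. Unadjusted p was under 0.05 for 9 of the Hippo genes, 1 TEAD gene and 4 targets, GADD45A included. The share over all genes tested was 27.5%. STK4 came nearest, at 0.57 (adjusted p = 0.0535). In the added interaction test AXL differed between the lines, with an arm change of 0.33 in KYSE70 and -2.01 in KYSE450 (adjusted p = 0.00711), as did ARHGEF17 (0.40 and -0.80, adjusted p = 0.0216), TGFB2 (0.03 and -1.14, adjusted p = 0.0323) and FRMD6 (0.66 and -0.67, adjusted p = 0.0343). Of the marker lists, CDH1 (1.55 and -0.52, adjusted p = 0.0141) and THY1 (1.27 and 0.19, adjusted p = 0.0489) passed the same interaction test. All of these genes were picked after the values of that test were seen, and it called 6.88% of all genes tested. AXL and TGFB2 passed the filter through KYSE450 alone. Both were low in KYSE70, where adding 1 to each value flattens their changes.

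The third comparison asked which genes differ with NMR knockdown. AMOTL2, AJUBA and CYR61 were higher than the knockdown control in both lines, but none of the 9 tested genes passed the threshold, and 0% of all genes tested did. Unadjusted p was under 0.05 for 1794 genes, 12.5% of those tested, among them 4 members (AMOTL2, AJUBA, CYR61 and AMOTL1), and voom on recovered reads called 4 genes, none of them a member. All 9 fitted changes were above 0, with a median of 0.43 against -0.002 over all genes. Of the 9 genes, 7 were higher in both lines, as were 27.1% of all genes tested; 0 were lower in both, against 25.9%. These counts describe genes chosen with earlier results of the same libraries known.

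Markers outside the pathway also differed with knockdown, and none of them was called. Of the 10 squamous markers 9 had fitted changes above 0, with a median of 0.28, and 5 were higher in both lines, as were 27.1% of all genes tested. The 8 fibroblast markers summed to 63.8 FPKM with knockdown and 48.3 FPKM in its control in KYSE70, and to 40.0 against 32.4 FPKM in KYSE450. They did not move together. Of the 3 tested in limma, COL3A1 stood at 1.57 (unadjusted p = 0.00142, adjusted p = 0.268), COL1A1 at 0.17 and THY1 at -0.06. PDGFRA and LUM, both below the filter, were lower with knockdown in both lines. The 5 listed endothelial markers summed to 2.19 against 1.57 FPKM in KYSE70 and to 2.07 against 0.856 FPKM in KYSE450, with VWF at 0.62 (adjusted p = 0.339). Of the 9 mitochondrially encoded genes 7 had fitted changes above 0, but 0 were higher in both lines. Their median change was 0.33 in KYSE70 and -0.36 in KYSE450. MT-CYB stood at -1.22 and MT-ND5 at -0.90, and both were lower in both lines. The part of these markers in the changes of the members was not tested.

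AMOTL2 had 87.5 FPKM with knockdown and 44.4 FPKM in its control in KYSE70, and 16.0 against 11.6 FPKM in KYSE450. The knockdown library was 1.97-fold of its control in KYSE70 (95% counting interval 1.87 to 2.07) and 1.38-fold in KYSE450 (1.25 to 1.52). The fitted change was 0.70 (SE 0.17, adjusted p = 0.293). Against the overexpression control of the same line, the knockdown library was at 2.05-fold in KYSE70 and 0.896-fold in KYSE450, so in KYSE450 it stood below that other control.

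AJUBA had 65.2 FPKM with knockdown and 46.5 FPKM in its control in KYSE70, and 114 against 74.0 FPKM in KYSE450, a fitted change of 0.55 (SE 0.14, adjusted p = 0.297). Both knockdown libraries were above their own controls, by 1.40-fold and 1.54-fold, and below the overexpression controls, at 0.761-fold in KYSE70 and 0.578-fold in KYSE450. The knockdown controls themselves were at 0.542-fold and 0.376-fold of the overexpression controls, the lowest AJUBA levels of each line. The knockdown and arm comparisons share these control libraries.

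CYR61 had 13.3 FPKM with knockdown and 7.37 FPKM in its control in KYSE70, and 11.6 against 7.52 FPKM in KYSE450, a fitted change of 0.67 (SE 0.19, adjusted p = 0.320). The 2 knockdown controls were the lowest CYR61 libraries of their lines. Against the overexpression controls, the knockdown libraries were at 1.09-fold in KYSE70 (0.959 to 1.23) and 1.19-fold in KYSE450 (1.04 to 1.36).

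CTGF showed the same order of libraries in KYSE450. It had 108 reads with knockdown and 29 in its control there, a ratio of 4.84-fold per library size (3.19 to 7.56), while the knockdown library was at 1.12-fold of the overexpression control (0.841 to 1.51). In KYSE70 the 4 reads with knockdown and the 1 read in the control gave a ratio of 4.0 with an interval of 0.396 to 197, which does not tell them apart.

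ANKRD1 had 9.67 FPKM with knockdown and 3.88 FPKM in its control in KYSE70, a ratio of 2.49 (2.11 to 2.95), and 0.121 against 0.0532 FPKM in KYSE450, where 7 and 4 reads gave a ratio of 2.27 (0.578 to 10.6). The KYSE70 knockdown library had the highest ANKRD1 level of all. The fitted change was 0.61 (SE 0.28, adjusted p = 0.418), with 1.13 in KYSE70 and 0.09 in KYSE450, and 1.30 with voom (adjusted p = 0.169).

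WWTR1 and TEAD1 differed with knockdown mainly in KYSE70, and YAP1 differed in opposite directions in the 2 lines. WWTR1 had 111 FPKM with knockdown and 68.9 FPKM in its control in KYSE70, and 46.2 against 49.2 FPKM in KYSE450, with a fitted change of 0.30 (SE 0.20, adjusted p = 0.520). TEAD1 had 86.8 against 50.7 FPKM in KYSE70 and 29.4 against 27.4 FPKM in KYSE450, with 0.43 (SE 0.19, adjusted p = 0.410). YAP1 had 36.0 FPKM with knockdown and 44.8 FPKM in its control in KYSE70 but 97.3 against 69.9 FPKM in KYSE450, with 0.08 (SE 0.20, adjusted p = 0.870). In KYSE70, WWTR1 and TEAD1 were thus higher and YAP1 lower in the knockdown library than in any of the other 3 libraries. AMOTL1 stood at 0.42 (SE 0.17, adjusted p = 0.385), mostly from KYSE450, and LATS2 at 0.11 (SE 0.16, adjusted p = 0.769).

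**Figure D4:**
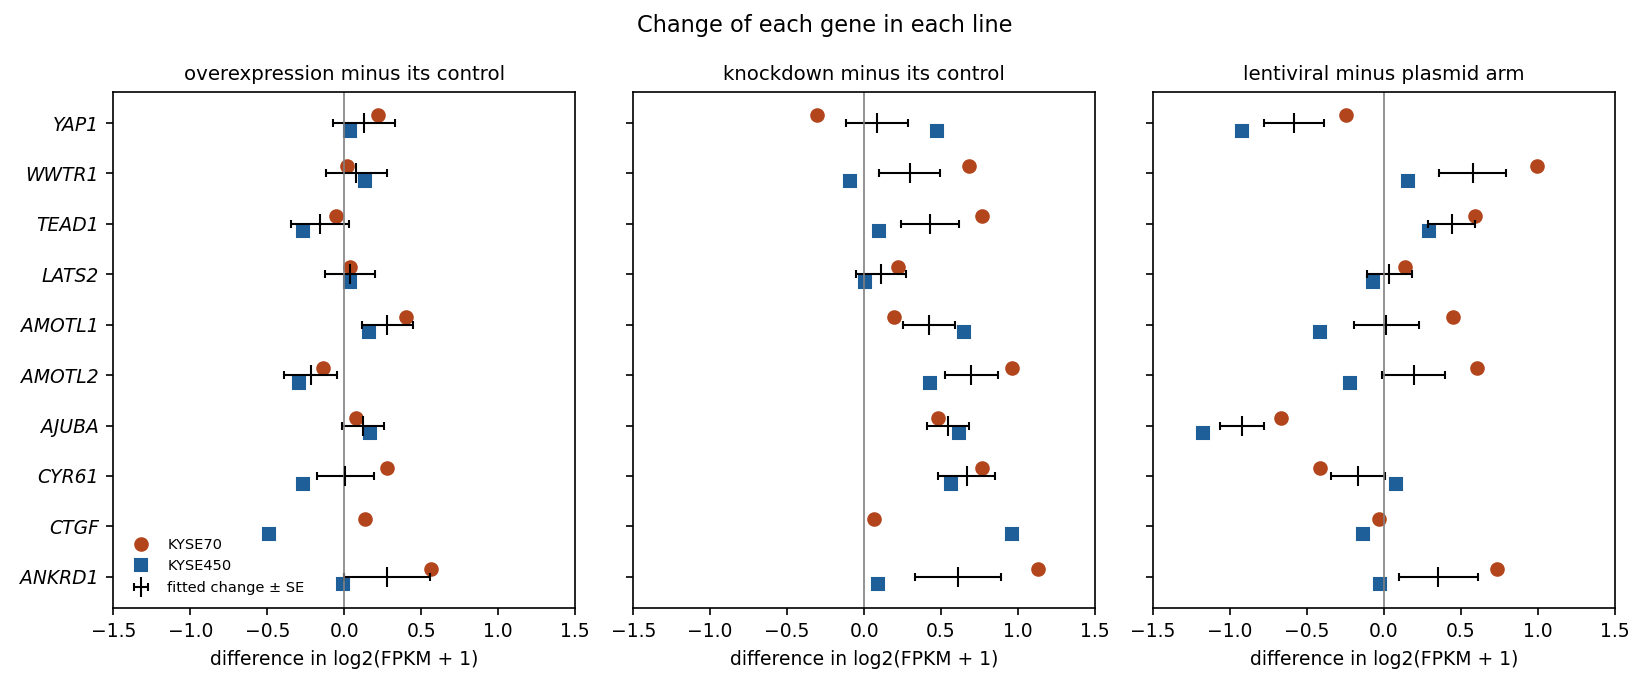
Difference in log2(FPKM + 1) of each gene for overexpression minus its control (left), knockdown minus its control (middle) and lentiviral minus plasmid arm (right), with KYSE70 as circles, KYSE450 as squares and the fitted change with its standard error as a black bar. CTGF, below the filter, has no fitted change; with knockdown AMOTL2, AJUBA and CYR61 lie above 0.4 in both lines, and with overexpression every fitted change lies between -0.22 and 0.28.

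These knockdown values depend on single libraries. When 1 library of the KYSE450 knockdown pair was left out, whichever it was, 6 members were called higher with knockdown: AMOTL2, TEAD1, WWTR1, ANKRD1, AJUBA and CYR61, at the changes of the KYSE70 pair alone. When 1 library of the KYSE70 pair was left out, 2 were called, AMOTL1 and AJUBA. In those fits the spread between replicates comes from the overexpression pairs alone, and 4832 to 4833 or 580 to 582 of all genes were called.

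The KYSE70 knockdown pair also stood apart in composition. The changes of the knockdown library against its control had a Spearman correlation of -0.483 with gene GC content, against 0.04 for the knockdown pair of KYSE450. It was taken across genes, which are not independent replicates. Which library of the KYSE70 pair carries the trend was not tested. After loess removal of GC and length trends, the KYSE70 change of AMOTL2, whose GC content is 56.7%, was 1.12 in place of 0.96, that of AJUBA 0.56 in place of 0.48 and that of CYR61 0.90 in place of 0.77. For TEAD1, at 41.3% GC, it was 0.47 in place of 0.77, and for WWTR1, at 40.9%, 0.38 in place of 0.68. The KYSE70 change of YAP1, at 43.5% GC, was -0.52 in place of -0.31. The part of the mitochondrial share in these values was not tested.

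Other genes of the pathway did not move together with knockdown, and 0 were called in limma. Unadjusted p was under 0.05 for 3 of 24 Hippo genes, 1 of 4 TEAD and VGLL genes and 4 of 17 other targets. The share over all genes tested was 12.5%. The Hippo kinases and scaffolds had 13 fitted changes above 0 and 11 below, with a median of 0.02. The kinase adaptor gene MOB1B stood at 0.53, and MAP4K4 at -0.44, WWC1 at -0.41 and SCRIB at -0.40, each with the same sign in both lines. TEAD2 and TEAD4 were at -0.46 and -0.32, opposite in sign to TEAD1, with 17.8 and 30.7 FPKM for TEAD2 in KYSE70 with knockdown and in its control.

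The other targets split, with 11 above 0, 6 below and a median of 0.04. THBS1, a matrix glycoprotein gene, had 437 FPKM with knockdown and 277 FPKM in its control in KYSE70 and 154.5 against 49.5 FPKM in KYSE450, a change of 1.14 (SE 0.29, adjusted p = 0.302). IGFBP3 stood at 0.82 (adjusted p = 0.347) and RBMS3 at 0.80 (adjusted p = 0.302). GADD45A was at -0.95 (SE 0.15, adjusted p = 0.199), below its control in both lines, and the knockdown control held its highest level in each line.

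**Figure D5:**
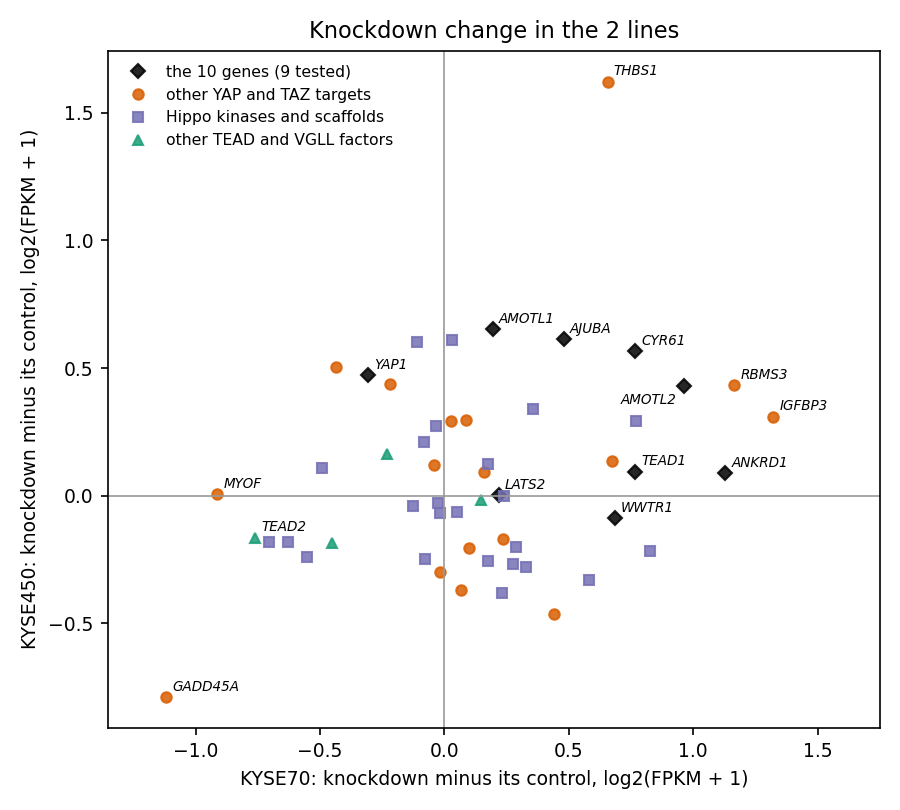
Knockdown minus its control in log2(FPKM + 1) in KYSE70 (horizontal) and KYSE450 (vertical) for the 9 tested members and the tested genes of 3 other pathway lists. The members lie at or to the upper right of the origin except YAP1 (-0.31 and 0.47) and WWTR1 (0.68 and -0.09), and the Hippo kinases and scaffolds scatter around 0.

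The fourth comparison asked which genes differ with NMR overexpression. All fitted changes were between -0.22 and 0.28, and 0 of the 9 tested genes passed, as did 0% of all genes tested. Unadjusted p was under 0.05 for 148 genes, 1.03% of those tested, none of them a member or a gene of the other pathway lists, and voom also called 0 genes. Of the 9 genes, 5 were higher in both lines, against 23% of all genes tested, and 2 were lower in both, against 27.6%.

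AMOTL1 and ANKRD1 had the largest fitted changes, 0.28 each, and that of ANKRD1 was 0.63 with voom on recovered reads. AMOTL1 had 24.6 FPKM under overexpression and 18.4 FPKM in its control in KYSE70 and 32.3 against 28.8 FPKM in KYSE450. Its change had an SE of 0.17 and an adjusted p of 0.9998 in limma. AMOTL2 and TEAD1 were below their controls in both lines, at -0.22 (SE 0.17) and -0.16 (SE 0.19). YAP1, WWTR1, AJUBA and LATS2 were at 0.13, 0.08, 0.12 and 0.04, above their controls in both lines.

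Of the targets, CYR61 and CTGF stood above their controls in KYSE70 and below them in KYSE450, with CTGF in KYSE70 at 1 read in the control, under the floor. CYR61 had 15.03 FPKM with overexpression and 12.2 FPKM in its control in KYSE70, but 7.96 against 9.79 FPKM in KYSE450, with a fitted change of 0.01 (SE 0.19). CTGF had 8 reads with overexpression and 1 in its control in KYSE70, but 49 against 89 reads in KYSE450, where the ratio was 0.510 (0.352 to 0.731). ANKRD1 had 4.28 against 2.57 FPKM in KYSE70, a ratio of 1.66 (1.36 to 2.04), and 6 reads each in both KYSE450 libraries. These differences between the lines were not tested. In the other pathway lists the medians with overexpression were 0.02 for Hippo kinases and scaffolds, 0.02 for TEAD and VGLL genes and 0.11 for other targets, against -0.01 over all genes.

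How the members varied together within lines is given as Pearson r over 8 libraries after the mean of each line was removed. No test was run, since the libraries share arms and controls. YAP1 and AJUBA varied together at 0.868, both highest in the plasmid arm of KYSE450. WWTR1 varied with TEAD1 (0.887) and ANKRD1 (0.855), and LATS2 with ANKRD1 (0.924) and AMOTL2 (0.875), all highest in the KYSE70 knockdown library. AMOTL2 also varied with ANKRD1 (0.833) and TEAD1 (0.819), and LATS2 with WWTR1 (0.815), so these genes did not form separate groups. How far these values rest on the KYSE70 knockdown library was not tested. YAP1 and TEAD1 ran opposite at -0.566. CTGF and CYR61 stood at 0.585, and CYR61 had no correlation above 0.6 with any other member.

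The genes outside the 10 that were most like the mean of CTGF and CYR61, by the same measure and among 10376 genes with a mean of at least 5 FPKM, were ALDH1B1 (0.948), STX3 (0.932), PDPN (0.929), PAK2 (0.926) and THBS1 (0.924). In all, 9 genes exceeded 0.9. PDPN, which encodes the membrane glycoprotein podoplanin, had 96.7 FPKM with knockdown and 59.9 FPKM in its control in KYSE70 and 81.6 against 46.1 FPKM in KYSE450. It was picked for its likeness to a mean that was itself higher with knockdown, so these values are no separate support. CTGF was near the floor in KYSE70, so the mean varied there mostly with CYR61. Of these 5 genes THBS1 was also on the list of YAP and TAZ targets.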

How the data were processed

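RNA was sequenced in 8 libraries of 2 cell lines and 4 groups, assigned from the titles. In the files as deposited by the authors, each library has 1 FPKM value per gene, that is, reads scaled by gene length and library size; the unit was inferred from the values, because headers and labels are silent on it. The tools TopHat2 2.0.9 and HTSeq 0.6.1 and the build hg19 are credited to the submitters' processing notes. What each tool did, the gene annotation, any filters and the strand setting: not given in the sources used here. Within each of 30872 genes above 0 in at least 2 libraries, the FPKM values came out as whole multiples of 1 read (100% of genes, tolerance 0.02). Recovered reads and their exact 95% intervals cover counting error only, since PCR copies were not marked by molecular identifiers.

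Genes averaging at least 1 FPKM, 14311 in all, were fitted as log2(FPKM + 1) with limma 3.58.1 (trend) in R 4.3.3, with Benjamini-Hochberg adjustment and a threshold of 0.05. A fold change on this scale understates the change of low genes. Treatments were fitted with 4 pair terms, 1 per line and arm (2 residual degrees of freedom). Line and arm had terms for group and line (3 residual degrees of freedom), and the arm by line interaction, in a model with no treatment term, was added after the data were seen (4 residual degrees of freedom). Libraries of 1 number share a cell line, so the numbers pair them: deviations from the group means correlated at 0.805 to 0.971 within a line. The fits were tested on simulated data. Alternatives changed the pseudocount, filter, scaling, test, terms and libraries, and removed GC and length trends by loess (GC content was known for 97.2% of genes).

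The 10 genes, the other lists and the rule for named genes were chosen with earlier results of these data known. The rule names all 10 genes, the called genes of each other list, and otherwise up to 4 of the largest changes that share a sign; TEAD4, VGLL3, VGLL4 and PDPN values, and those of the interaction beyond the members, were added after they were seen. Of the listed identifiers, 45342 occur in GENCODE 29 on GRCh38. All 10 are protein-coding; annotated genes that overlap them had a mean of at most 0.722 FPKM (WWTR1-AS1), and reads from opposite strands may not be told apart.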

Additional observations from a re-analysis of the deposited data

Results flagged for a closer look

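AMOTL2 in KYSE70 stood out for its knockdown library, at 87.5 FPKM with knockdown against 38.8 to 44.4 FPKM in the other 3 libraries of the line. The gap to the nearest library was 0.834 of the whole range, above Dixon's 95% critical value for 4 libraries. It was the 1 such library among 20 groups of 4 examined, and chance flags about 1 in 20.

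Several genes had folds on opposite sides of 1 in the 2 lines. CTGF with overexpression was at 8.39-fold of its control in KYSE70, on 8 against 1 reads (interval 1.12 to 372), and at 0.510-fold in KYSE450. CYR61 with overexpression was at 1.23-fold in KYSE70 and 0.813-fold in KYSE450. WWTR1 with knockdown was at 1.62-fold in KYSE70 and 0.939-fold in KYSE450, and YAP1 with knockdown at 0.804-fold in KYSE70 and 1.39-fold in KYSE450. Each of these folds has a counting interval that leaves out 1, but the difference between the lines was not tested.

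The arm change of AMOTL1 was 0.446 in KYSE70 and -0.413 in KYSE450, with both libraries of an arm on the same side of the other arm in each line. In KYSE450 the arms barely parted, at 28.69 FPKM in the higher lentiviral and 28.82 FPKM in the lower plasmid library. The arm change of LATS2 was 0.139 in KYSE70 and -0.0713 in KYSE450. Its nearest KYSE70 libraries were at 5.904 FPKM (lentiviral) and 5.859 FPKM (plasmid). The share of all genes parted in opposite directions was not computed. The interaction test gave an adjusted p of 0.144 for AMOTL1 and 0.532 for LATS2 in limma.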

How the results depend on the processing

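Between the lines 5 members were called in every alternative but 2, with 4 where the filter was a mean of 5 FPKM, which leaves ANKRD1 out, and 6 with no filter, which adds CTGF. With overexpression 0 members were called in all alternatives, and with knockdown 0 in all but those that left out a library, where the count ran from 0 to 6. Between the arms the 1 member called became 0 with no filter, 0 between the controls alone and 0 with no replicate block, and ran from 0 to 3 when 1 library was left out; the 3 came without the KYSE450 knockdown library. Median-ratio scaling changed no count of members.

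Without the replicate block the arm change of AJUBA had an adjusted p of 0.772 in limma, and 0 members were called for overexpression and for knockdown, as with it. Counts of all genes called moved more. The knockdown count of 0 became 3 with a pseudocount of 0.1, 4 with voom, 37 with its own arm alone and 36 to 4833 without 1 library. The overexpression count of 0 became 12 with its own arm alone and 0 to 12 without 1 library. The arm count of 575 became 881 with voom, 0 with no filter, without the block or between the controls alone, and 0 to 2463 without 1 library.

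Signs turned for small changes. With median-ratio scaling the arm change was -0.0585 for AMOTL1 and -0.0334 for LATS2, and between the controls alone -0.0545 for AMOTL1, -0.264 for AMOTL2 and -0.0031 for LATS2. The knockdown change of YAP1 was -0.0173 with GC and length trends removed and the replicate block. With 1 library left out, the overexpression change ran from -0.268 to 0.280 for CYR61 and from -0.0107 to 0.564 for ANKRD1, the knockdown change from -0.0885 to 0.684 for WWTR1 and from -0.308 to 0.472 for YAP1, and the line difference of AMOTL1 from -0.288 to 0.114. The arm change ran from -0.203 to 0.236 for AMOTL1, from -0.0373 to 0.105 for LATS2, from -0.342 to 0.0041 for CYR61 and from -0.0322 to 0.418 for AMOTL2. The cause was not tested. Depth limits CTGF in KYSE70 and ANKRD1 in KYSE450, which rest on 1 to 8 and 4 to 7 reads.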

Other observations

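YAP1 lies at chr11:102110461-102233423 on GRCh38 (GENCODE 29, plus strand), and 7 genes with a mean of at least 1 FPKM, YAP1 among them, lie within 500 kb. This window was chosen after the line difference of YAP1 was seen. Of its 6 neighbours 5 were called lower in KYSE70 than in KYSE450 as well, as were 27.4% of all genes tested. KIAA1377 and C11orf70 passed the filter through KYSE450 alone, which favoured their being lower in KYSE70. The log2 difference was -2.96 for KIAA1377 (adjusted p = 2.45e-05), -2.02 for C11orf70 (0.000124), -1.65 for the apoptosis inhibitor gene BIRC3 (0.00781), -0.92 for its paralogue BIRC2 (0.0284) and -0.88 for RP11-315O6.1 (0.0066), all by limma with Benjamini-Hochberg adjustment. TMEM123, at -0.11 (adjusted p = 0.518), did not pass.

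BIRC2 had 30.4 and 29.9 FPKM with overexpression and its control in KYSE70, against 92.5 and 90.0 FPKM in KYSE450. In the lentiviral arm it had 75.7 and 38.8 FPKM with knockdown and its control in KYSE70, against 73.2 and 58.7 FPKM in KYSE450, so there the lines did not differ in one direction. DNA copy number was not analysed here.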
